A study of Mus musculus with 30 samples.

Results

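Tug1, Meg3, Rian, Malat1, Neat1 and Kcnq1ot1 are autosomal long noncoding RNAs, and all 6 were found in maps of N6-methyladenosine (m6A) from mouse embryonic stem cells. They were taken from the deposited peak lists by gene symbol. They make up 6 of the 13765 genes with a called site and 70 of the 62139 distinct called bins. A bin here is a stretch of 100 nt within 1 Ensembl gene model that the authors' peak calling kept in at least 1 list.

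The study compared 5 C57BL/6 embryonic stem cell lines grown with LIF and serum. The lines were wild type (WT), a METTL14 knockout (KO), and the knockout given back either wild-type METTL14 (KO+WT) or METTL14 with arginine methylation-deficient changes named 5RK (KO+5RK) or 13RK (KO+13RK). Each line had 3 replicate immunoprecipitations with an m6A antibody and 3 input libraries, and each immunoprecipitation gave 1 list, so that 15 lists were compared and 12 of them came from lines with METTL14. The labels name neither the promoter of the rescue constructs nor the number of clones behind a line. They do not say whether replicates were separate cultures either. The tests took lists as independent although each line gave 3, so p-values compare lists and do not stand for replicate lines of a genotype.

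m6A is deposited on nascent RNA by a complex whose catalytic subunit is METTL3 and whose RNA-binding partner is METTL14. The complex prefers short motifs with the core GGAC, and methylated sites of messenger RNAs gather in long internal exons and near the stop codon. Noncoding RNAs have no stop codon, and human MALAT1 is among the RNAs in which single m6A sites have been located. Cap-adjacent nucleotides can carry a related mark, N6,2′-O-dimethyladenosine (m6Am), which another enzyme deposits and which m6A antibodies also bind, so the marks cannot be told apart in these lists.

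The 6 genes differ in size and role. Tug1 (ENSMUSG00000056579, chr11:3639785-3648814, minus strand) is a widely expressed RNA first described as a taurine-upregulated transcript of the retina. Meg3 (ENSMUSG00000021268, chr12:109540996-109571729, plus strand) and Rian (ENSMUSG00000097451, chr12:109603945-109661716, plus strand) are maternally expressed RNAs of the imprinted Dlk1-Dio3 cluster, and Rian hosts C/D box small nucleolar RNAs. Malat1 (ENSMUSG00000092341, chr19:5795690-5802672, minus strand) is an abundant nuclear RNA of speckles. Neat1 (ENSMUSG00000092274, chr19:5824708-5845480, minus strand) lies in the same chromosome region and builds the core of paraspeckles. Kcnq1ot1 (ENSMUSG00000101609, chr7:143213111-143296547, minus strand) is paternally expressed and silences genes of the imprinted Kcnq1 cluster. Coordinates are on GRCm38, with gene spans from RefSeq GRCm38.p6.

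The start of Malat1 was the only stretch under a called bin of these genes whose sequence could be read here. The bin over it held the highest Malat1 enrichment value in each of the 3 KO lists, but its change in place did not pass the test described below. RefSeq (GRCm38.p6) gives these 68 bases, chr19:5802623-5802690, read on the minus strand, with the 18 bases before the gene start in lower case and the first 50 transcribed bases in capitals.
Malat1 start: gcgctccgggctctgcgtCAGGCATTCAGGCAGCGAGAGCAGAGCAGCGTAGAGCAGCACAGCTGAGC
Neither GGACT nor its shorter core GGAC, which it contains, was found on either strand of this stretch. Of 32851 RefSeq promoter windows, 7.43% held GGACT and 23.8% held GGAC on the transcribed strand of the same 68-base stretch, and 13.4% and 41.1% held them on either strand. The stretch covers most of the first Malat1 bin but not all of it. The promoter windows of Tug1, Meg3, Rian and Kcnq1ot1, 250 bases before to 50 after the start, overlapped no called bin of their gene.

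The lists differed in length, which touches every count below. A list held 22683 ± 474 bins in WT (SD, n = 3) and 7777 ± 1258 in KO. The rescued lines lay between, at 15206 ± 1714 for KO+WT, 12298 ± 985 for KO+5RK and 10105 ± 762 for KO+13RK. Read depth is unknown, so a bin missing from a list was not called there and may still carry m6A. How much the length of the KO lists contributes to a missing call was not tested beyond lists trimmed to equal length. The loss of METTL14 could not be checked in the lists, as Mettl14 itself had a bin in 2 KO+5RK lists only. Among embryonic stem cell markers, Esrrb was called in 15 lists, Sox2, Nanog and Klf4 in 14 each and Pou5f1 in 6.

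Tug1 and Meg3 had no call in the KO lists and Rian had 1, while Malat1 and Neat1 were called in all of them. Tug1 held 3, 5 and 7 bins in the WT lists of replicates 1, 2 and 3, and 0 in each KO list. It held 8, 5 and 8 in KO+WT, 4, 7 and 6 in KO+5RK, and 4, 0 and 4 in KO+13RK. All lists with METTL14 except KO+13RK replicate 2 therefore lay above the KO lists. Meg3 held 3 bins in each WT list, 0 in each KO list, 2, 2 and 5 in KO+WT, 2, 4 and 3 in KO+5RK, and 3, 2 and 1 in KO+13RK. Every list with METTL14 held at least 1 Meg3 bin and no KO list did, so the groups did not overlap.

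Rian held 4, 3 and 4 bins in WT, 2, 3 and 2 in KO+WT, 3, 2 and 2 in KO+5RK, and 1, 1 and 3 in KO+13RK. Its KO lists held 0, 1 and 0, and the single KO bin lay apart from the others. Malat1 held 22, 30 and 31 bins in WT, 21, 22 and 23 in KO, 22, 19 and 21 in KO+WT, 28, 24 and 21 in KO+5RK, and 19, 22 and 20 in KO+13RK. The KO lists thus fell inside the range of the other lines. Neat1 held 2, 3 and 3 bins in WT, 2, 2 and 3 in KO, 4 in each KO+WT list, 4, 3 and 3 in KO+5RK, and 2, 3 and 3 in KO+13RK, again with overlap. Kcnq1ot1 had 1 bin, in WT replicate 1 alone.

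**Figure D1:**
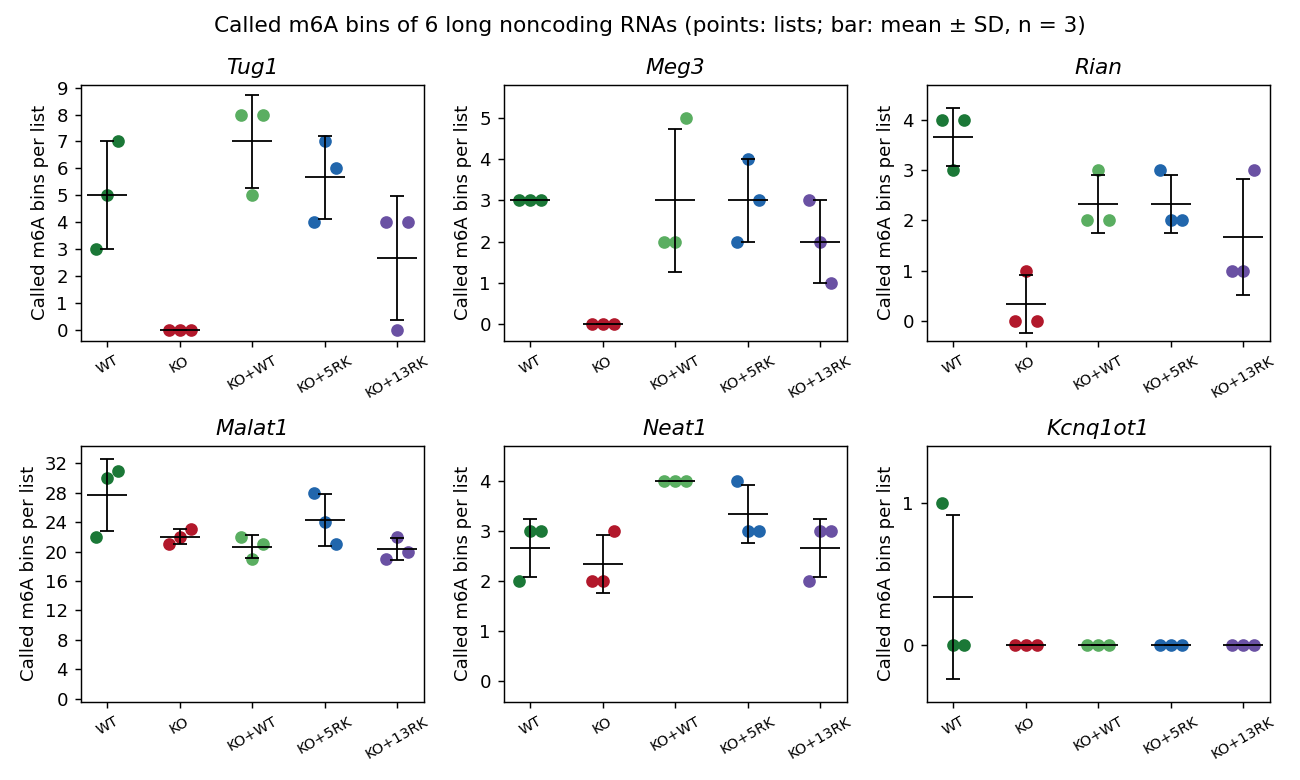
Number of called 100 nt bins per list (vertical axis) for each long noncoding RNA in the 5 lines (horizontal axis); points are the 3 lists of a line, and the bar and whiskers are the mean ± SD. Tug1 and Meg3 sit at 0 in all 3 KO lists, whereas Malat1 sits between 21 and 23 there, within the span of the other lines.

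Averaged over lists, Tug1 had 0 bins in KO against 5.08 in the 12 other lists, Meg3 0 against 2.75 and Rian 0.333 against 2.5. Malat1 had 22 against 23.3 and Neat1 2.33 against 3.17. In an exact two-sided permutation test of bins per list, run on every gene with a bin in at least 3 lists, the p-values were 0.00879 for Tug1, 0.0022 for Meg3, 0.00659 for Rian, 0.771 for Malat1 and 0.202 for Neat1. The value for Meg3 is the smallest that 3 lists against 12 can give. After Benjamini-Hochberg adjustment over 9852 genes these exact tests gave 0.124, 0.0565, 0.116, 0.972 and 0.587, so none passed 0.05. No gene did (0% of genes tested), although 1510 had an unadjusted p under 0.05, 1296 of them lower in KO. The adjusted p of Meg3 was the smallest of any gene, so here even the smallest possible p could not pass. The lack of passing genes is therefore a limit of this test. Meg3 was the only one of the 6 with fewer bins in every KO list than in each of the 12 others, which held for 4.93% of the genes tested. With each list trimmed to the length of the shortest, the Meg3 difference became -2.00 bins with an adjusted p of 0.0397 in the exact permutation test, the lowest of a range up to 0.693 over the alternatives.

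Bin by bin, presence in the 3 KO lists was compared with presence in the 12 others by Fisher's exact test over all bins called in at least 3 lists. Of the 70 bins, 47 could be tested and 3 had fewer calls in KO (adjusted p = 0.0378 for each, Fisher's exact test), while 0 had more. Over all genes, 4.76% of the bins tested had fewer calls in KO by this test and 1.05% had more. The 3 bins lay in 3 different genes, Meg3, Rian and Neat1, and each was present in all 12 lists with METTL14 and absent from all 3 KO lists. Thus 3 of the 5 genes with a testable bin had such a bin, and over all genes with a testable bin it was 9.86%. The embryonic stem cell markers named above gave the same count, 3 of 5, so it is not particular to these RNAs. Another 5 bins were present in 11 of the 12 and in no KO list (adjusted p = 0.0911, Fisher's exact test). Of these, 3 were in Tug1, 1 in Meg3 and 1 in Malat1. Leaving out KO+13RK replicate 2, which had no Tug1 bin, raised the count from 3 to 6 by adding the Tug1 bins (adjusted p = 0.0402, Fisher's exact test). Leaving out any 1 of the KO lists left 0, for these genes and for all others. The 3 bins kept a difference of -1 in share of lists there, the largest possible. Their adjusted p was still 0.214 to 0.221 (Fisher's exact test), so no bin could pass with a KO list left out. Over the alternatives in which a bin could be tested, adjusted p in the exact tests ran from 0.0254 to 0.764 for Meg3. It ran from 0.0254 to 0.515 for the Rian bin and from 0.0378 to 0.221 for the Neat1 bin. The Neat1 range leaves out the minimum enrichment, under which that bin had no call left to test. The Meg3 range leaves out the setting without overlapping models.

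**Figure D2:**
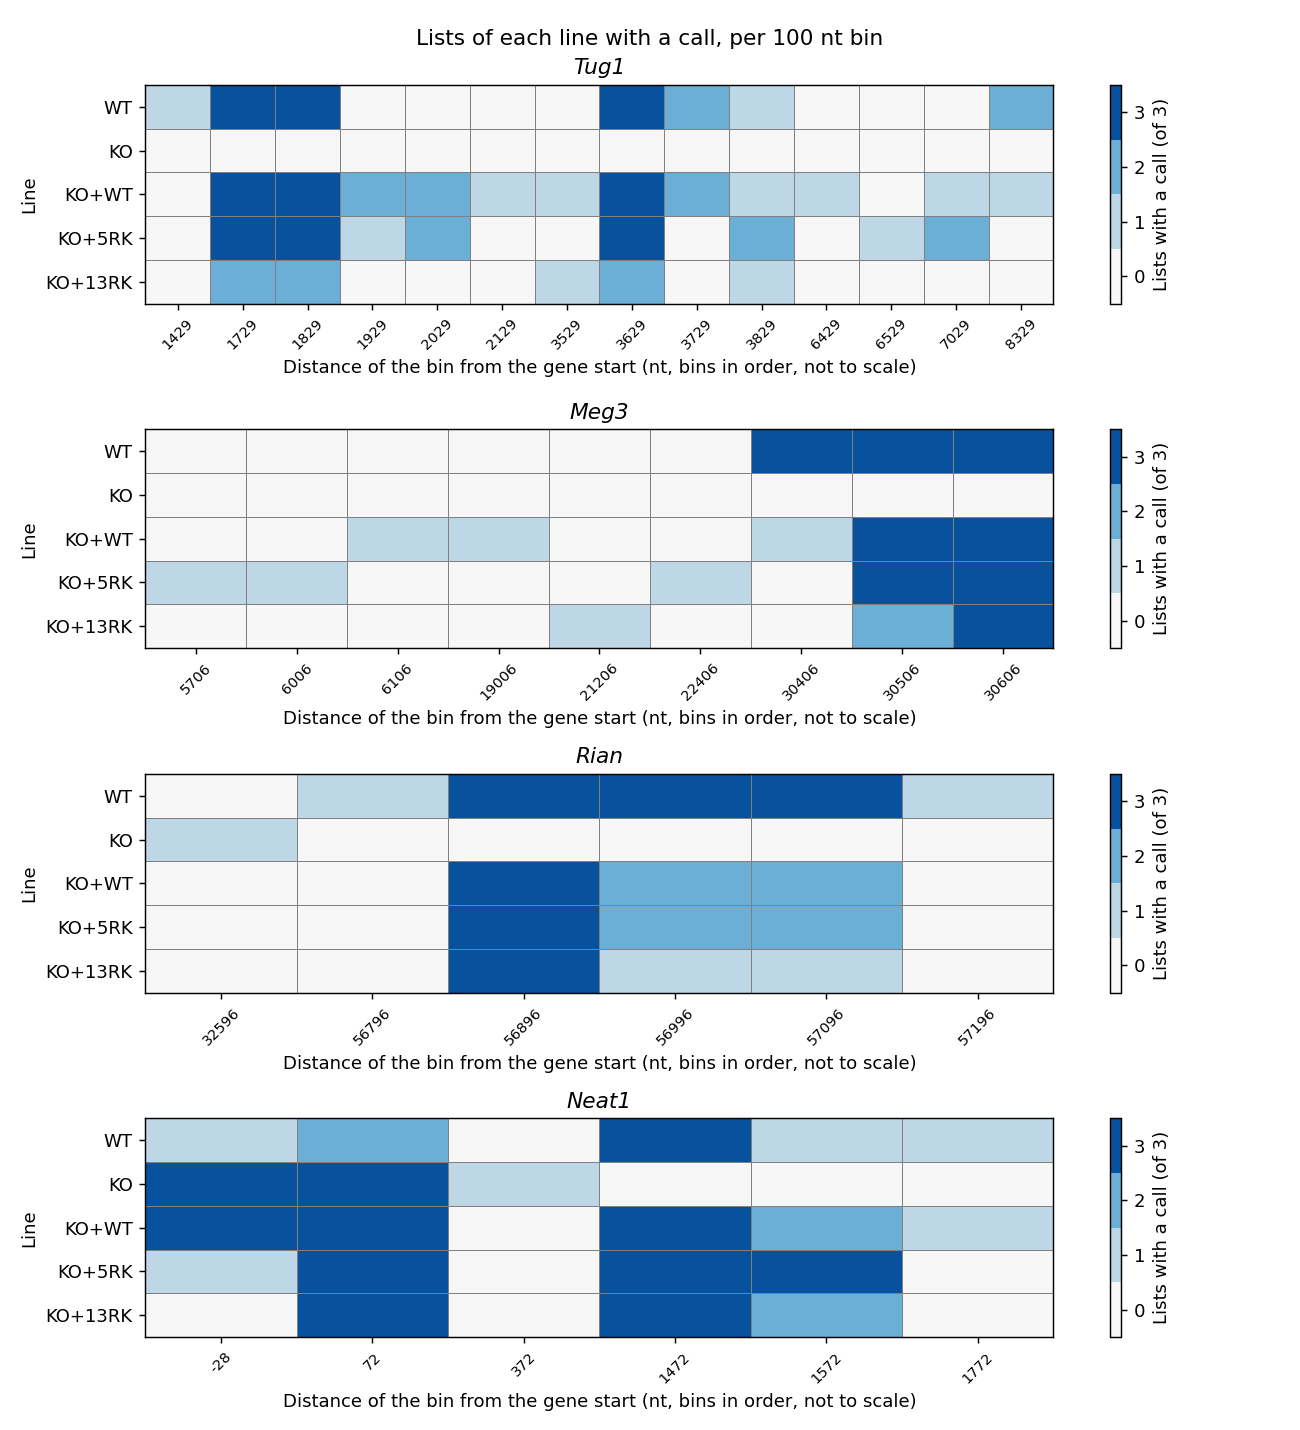
Number of lists per line (of 3, colour) in which each bin of Tug1, Meg3, Rian and Neat1 was called; bins are in transcript order along the horizontal axis, labelled by distance in nt from the gene start and not to scale. The KO line is empty in Tug1 and Meg3 and holds 1 isolated bin in Rian. In Neat1 it holds the start bins (-28 and 72 nt) in 3 lists and a bin at 372 nt in 1 list, and lacks those from 1472 nt onward.

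The Tug1 calls concentrated in 2 places. Neighbouring bins at chr11:3646986-3647085 and chr11:3646886-3646985, 1729 and 1829 nt from the gene start, and a bin at chr11:3645086-3645185, 3629 nt from it, were each called in every list of WT, of KO+5RK and of KO+WT, and in 2 of the 3 from KO+13RK. The authors' enrichment value, a score whose scale is not stated, was 2.78, 1.93 and 2.73 in the WT lists for the first of these. For the second it was 1.75, 3.00 and 2.99, which put the median WT call at percentile 98.0 of all values in its list. For the third it was 2.26, 1.89 and 2.26, at percentile 86.7. The values of the second site ranged down to 1.11 in the rescued lines, below the median of 1.36 over all calls. The remaining 11 Tug1 bins reached at most 5 lists each, and none of the 14 appeared in a KO list.

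Other gene models cover part of the Tug1 sites. Gm27937, on the same strand, had a bin at chr11:3646943-3647042 that overlaps both 5′ Tug1 sites. That bin was called in 11 lists, 0 of them KO and 3 of them KO+13RK, and in 10 lists together with either Tug1 bin. KO+13RK replicate 2, with no Tug1 bin, therefore still had a call at this position under the other model. In a setting that was not planned, overlapping bins of different models were joined into 1 region. The Tug1 region was then present in 12 of 12 lists with METTL14 and absent from KO (adjusted p = 0.0384, Fisher's exact test). Gm27624 and Gm27640 overlapped 1 Tug1 bin each and were called in 3 and 4 lists, of which 1 Gm27624 list was KO. Which model the reads came from cannot be told apart.

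Meg3 was called in more than 1 list at its 3′ end only. The bin at chr12:109571602-109571701 ends 28 nt before the RefSeq gene end. It was present in all 12 lists with METTL14 and in no KO list. Its enrichment values were 1.75, 2.10 and 1.60 in WT, 1.13, 1.06 and 1.47 in KO+WT, 1.31, 1.02 and 1.51 in KO+5RK, and 1.03, 1.43 and 1.11 in KO+13RK. The median WT call stood at percentile 70.9 of its list. The neighbour at chr12:109571502-109571601 was present in all of these but KO+13RK replicate 3, and the next, chr12:109571402-109571501, in 3 WT lists and 1 KO+WT list. The other 6 Meg3 bins lay 5706 to 22406 nt from the start and were each called in 1 list of a rescued line.

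Opposite the Meg3 end, the antisense model Gm26906 had bins in 5 and 2 lists, none of them KO. The libraries were stranded per the labels, but whether peak calling used strand is not stated, so calls of the 2 models cannot be told apart. With bins that overlap another model left out, the Meg3 site could not be tested, and the Meg3 difference in bins per list was -0.833 (adjusted p = 0.693, exact permutation test). With bins kept only at or above the median enrichment of 1.36, the Meg3 site had an adjusted p of 0.764 in Fisher's exact test.

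Rian showed a like pattern, with 5 of its 6 bins within 1000 nt of the gene end. The bin at chr12:109660841-109660940, 776 nt from that end, was present in all 12 lists with METTL14 and in no KO list. Its enrichment values were 2.11, 2.07 and 2.20 in WT, 1.74, 1.44 and 1.49 in KO+WT, 1.48, 1.48 and 1.38 in KO+5RK, and 1.29, 1.32 and 1.32 in KO+13RK. The median WT call stood at percentile 83.7. The 2 bins after it, at 676 and 576 nt from the end, were each called in 3 lists of WT, 2 of KO+WT, 2 of KO+5RK and 1 of KO+13RK (adjusted p = 0.323 for each, Fisher's exact test). The only Rian call in KO was chr12:109636541-109636640 in replicate 2, 25076 nt from the end, with an enrichment value of 2.26. No other gene model had a bin at a Rian position. With bins kept only at or above the median enrichment, its adjusted p was 0.515 in Fisher's exact test.

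Neat1 combined both behaviours within 1 transcript. All 6 of its bins lay within 2000 nt of the start, although the gene spans 20773 nt. At the very start, chr19:5845309-5845408 was called in 2 WT lists and in all 3 lists of each other line, KO included. Its enrichment values were 1.49, 1.63 and 1.61 in KO, 0.80 and 0.90 in WT replicates 2 and 3, and 0.72 to 1.04 in the rescued lines. The bin upstream of it, chr19:5845409-5845508, was called in 3 lists each of KO and KO+WT, in 1 each of WT and KO+5RK and in 0 of KO+13RK, with values of 1.41, 1.34 and 2.73 in KO. Neither bin differed between KO and the other lists by Fisher's exact test (adjusted p = 1 and 0.565). The values of different lists were not tested against each other.

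Further in, the Neat1 bin at chr19:5843909-5844008, 1472 nt from the start, was present in all 12 lists with METTL14 and in no KO list. Its enrichment values were 0.87, 1.34 and 0.85 in WT, 1.03, 1.00 and 0.93 in KO+WT, 1.07, 0.99 and 0.90 in KO+5RK, and 0.97, 0.95 and 1.15 in KO+13RK. The median WT call stood at percentile 5.64 of its list, far below the Tug1, Meg3 and Rian sites. The adjacent bin at 1572 nt was called in 1 list of WT, 2 of KO+WT, 3 of KO+5RK, 2 of KO+13RK and 0 of KO (adjusted p = 0.323, Fisher's exact test). The call of the 1472 nt bin was lost with a stricter q of 0.005 (adjusted p = 0.0952) and with lists trimmed to equal length (adjusted p = 0.116, both by Fisher's exact test). With bins kept only at or above the median enrichment of 1.36 it could not be tested, as its highest value was 1.34. Gm27505 and Gm27533 had bins inside the Neat1 span, none of them at a Neat1 bin.

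Malat1 was the most densely called of the 6, with 34 bins over 48.7% of its 6983 nt. By bins per list it stood between place 5 and place 16 among all genes with a bin, and at places 8, 9 and 8 in the KO lists. Of its bins, 15 were called in all 15 lists, and 18 of the 34 lay within 2000 nt of the start. An unbroken run of called bins stretched from 682 to 1582 nt from the start in every list. No bin lay within 1000 nt of the 3′ end. Over all genes, 495 bins were called in all 15 lists. Gm20388 held 62 of them, Ncl 17 and Malat1 15, the third count among genes. The bins not called everywhere lay at or beyond 1682 nt from the start, except those at 482 and 582 nt.

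**Figure D3:**
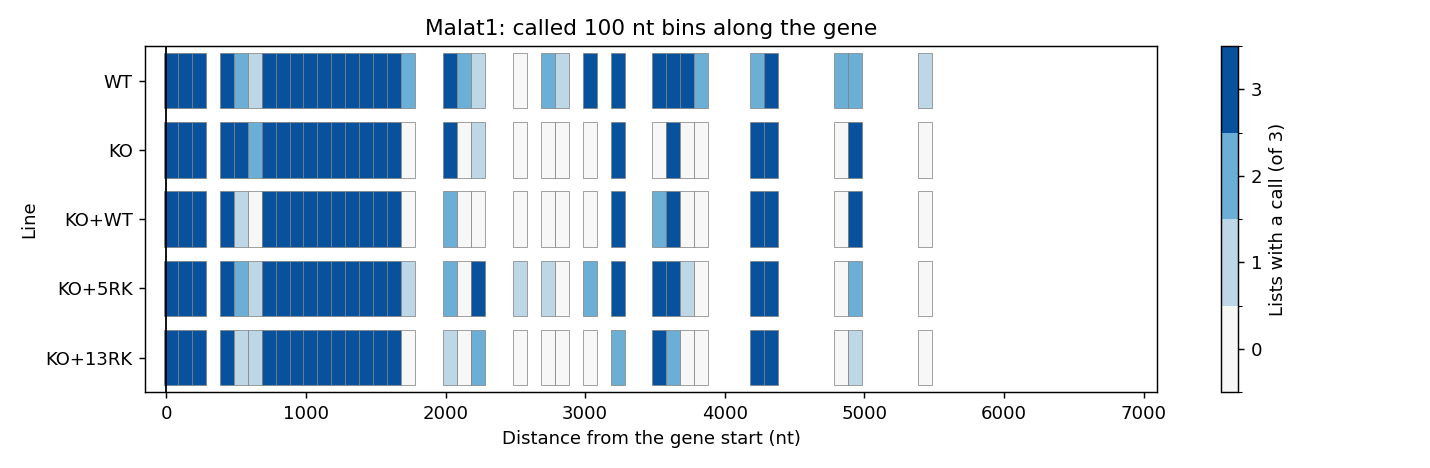
Called Malat1 bins drawn to scale by distance from the gene start in nt (horizontal axis) for the 5 lines, coloured by the number of lists (of 3) with a call. The block from 682 to 1582 nt is filled in every line, and WT has more bins beyond 1682 nt than the other lines.

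Between WT and KO, 21 Malat1 bins were in all 3 WT lists, 18 of them were also in all 3 KO lists, and 3 were in none. The lost bins lay at 2982, 3482 and 3682 nt from the start. The one at chr19:5799091-5799190 (3482 nt) was present in 11 of 12 lists with METTL14, all but KO+WT replicate 2, with enrichment values of 0.84, 0.68 and 0.81 in WT. The other 2, at chr19:5799591-5799690 and chr19:5798891-5798990, were also absent from KO+WT and KO+13RK, and were called in 2 and 1 KO+5RK lists. Of all 34 bins, 11 were in no KO list, and 5 of those were in WT lists only. No Malat1 bin differed in presence between KO and the others (28 tested by Fisher's exact test).

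Because presence cannot move for bins called everywhere, the order of the 15 constant Malat1 bins was compared within each list. They were placed by enrichment value, with place 1 the highest, and the places were tested by exact permutation over lists. This comparison was added after seeing the data, on the 156 bins of 11 genes with at least 5 constant bins. In KO, 8 of the 15 Malat1 bins changed place, 4 to a lower and 4 to a higher one. Over all 156 bins 23.7% changed, and outside Malat1 it was 29 of 141. Places within a list are relative, so a drop of some bins lifts others. Without KO replicate 2 or without KO replicate 3 the count for Malat1 was 0, and without KO replicate 1 it was 7. With a KO list left out the test cannot give as small a p, so a count of 0 does not show that the places changed.

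The bin at chr19:5801391-5801490, 1182 nt from the start, held place 1 in 11 of the 12 lists with METTL14 and place 2 in KO+13RK replicate 2. In the KO lists it held places 4, 11 and 14 (adjusted p = 0.0171, exact permutation test). Its enrichment values were 3.43, 3.31 and 3.59 in WT, 2.85, 2.87 and 3.26 in KO+WT, 3.30, 3.04 and 2.87 in KO+5RK, and 2.47, 2.55 and 3.32 in KO+13RK, against 1.69, 0.91 and 0.74 in KO. The strongest Malat1 site of the METTL14 lines was thus still called in the knockout, but no longer as its strongest.

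Its neighbours moved with it. The bin at 1082 nt (chr19:5801491-5801590) held places 2 to 5 in the 12 lists, with a mean of 2.92 ± 0.90 (SD, n = 12), and places 13, 13 and 12 in KO (adjusted p = 0.0171, exact permutation test). The bin at 1282 nt (chr19:5801291-5801390) held places 3 to 5 with a mean of 4.00, and 11, 9.5 and 10 in KO (adjusted p = 0.0171, exact permutation test). The bin at 1382 nt (chr19:5801191-5801290) moved least, from a mean place of 5.75 to 7.5 (adjusted p = 0.0312, exact permutation test). At 982 and 1482 nt, on the flanks, the places did not pass the test (adjusted p = 0.688 and 0.237, exact permutation). The drop therefore spanned 4 adjacent bins from 1082 to 1382 nt.

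The bins whose rise in place in KO passed the test lay closer to the start. The bin at 182 nt (chr19:5802391-5802490) went from a mean place of 8 to 4, and that at 782 nt (chr19:5801791-5801890) from 9.17 to 5.00 (adjusted p = 0.0171 for each, exact permutation test). The bins at 882 nt (chr19:5801691-5801790), 9.5 against 6.33, and at 82 nt (chr19:5802491-5802590), 4.75 against 2.33, followed with adjusted p-values of 0.0264 and 0.0312 in the exact permutation test. The bin over the start itself (chr19:5802591-5802690), whose sequence is given above, held place 1 in all 3 KO lists and places 1 to 8 in the others. Its enrichment values were 2.34, 2.27 and 3.22 in KO and 2.05, 2.68 and 3.00 in WT, so the KO and WT values overlapped. Its change in place did not pass the test (adjusted p = 0.193, exact permutation). The largest rise in mean place was far downstream, at 4282 nt (chr19:5798291-5798390), from 9.92 to 4.33. That rise did not pass either (adjusted p = 0.0686, exact permutation test).

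**Figure D4:**
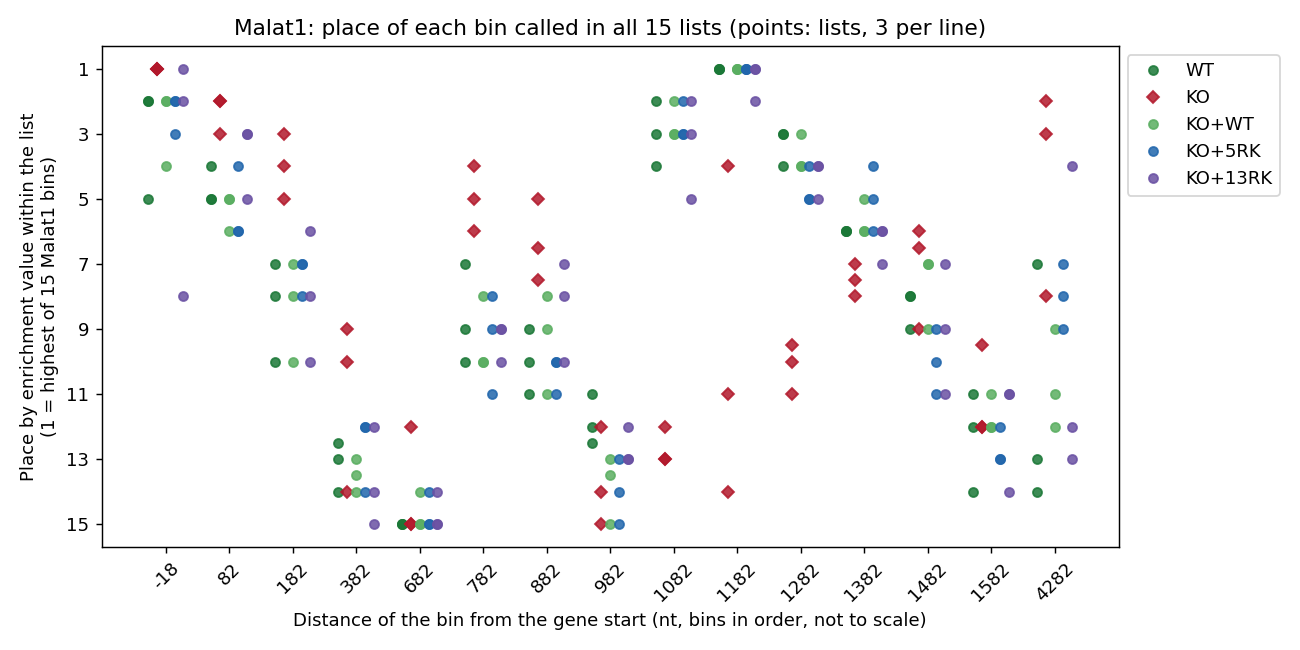
Place of each of the 15 constantly called Malat1 bins by enrichment value within a list (vertical axis, 1 = highest, inverted) against distance of the bin from the gene start in nt (horizontal axis, in order, not to scale); each point is 1 list and red diamonds are KO. The bin at 1182 nt holds place 1 or 2 in every list with METTL14 and places 4, 11 and 14 in KO, where the bin at -18 nt holds place 1.

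Part of Malat1 also lies under other models. ENSMUSG00000092267, which had no symbol in the name table, and Gm37376 run on the opposite strand, and each had a bin called in 11 lists, 3 of them KO. Gm27694 runs on the same strand, and its bin at chr19:5799001-5799100 was called in 9 lists, 0 of them KO. It overlaps the 3482 nt bin by 10 nt and the 3582 nt bin by 90 nt, and the latter was called in 14 lists. None of the 8 Malat1 bins that changed place in KO shared its position with another model. Across the 6 genes, 14 of 70 bins shared a position with 8 other models.

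Kcnq1ot1 had the least coverage. Its bin, chr7:143295356-143295455, 1092 nt from the start, had an enrichment value of 2.13 in WT replicate 1, at percentile 84.3 of that list. The same list had a bin of Kcnq1 on the opposite strand, overlapping it by 93 nt. With 1 list, no test was possible.

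Read as losses and gains between lines, a bin counted as lost when it was in all 3 lists of one line and none of the other, with no test since 3 against 3 lists cannot go below an exact p of 0.1. From WT to KO, 13 of 31 bins were lost, against 80.2% of all bins in all WT lists. These were all 3 such bins of Tug1, of Meg3 and of Rian, the single one of Neat1, and 3 of 21 of Malat1. The share kept in all 3 KO lists was 18 of 31, all in Malat1, against 9.55% of all bins. No bin was gained from WT to KO, of 23 in all KO lists (26.2% over all genes). Without WT replicate 1 the loss was 20, because more bins then counted as present in WT. With lists trimmed to equal length it was 7, and with overlapping models left out 8. As whole genes, Tug1 and Meg3 were lost from WT to KO, as were 31.5% of genes with a bin in every WT list.

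Most of the bins lost in KO were called again in at least 1 list of the rescue with wild-type METTL14, though not all of these in every list. From KO+WT to KO, 7 of 28 bins were lost (71.5% over all genes), namely 3 of 3 in Tug1, 2 of 2 in Meg3, the only one in Rian, 1 of 3 in Neat1 and 0 of 19 in Malat1, and 0 of 23 were gained (23.5%). This comparison shares the KO lists with the preceding one. From WT to KO+WT, 2 of 31 bins were lost (15.3% over all genes), the Malat1 bins at 2982 and 3682 nt, and 0 of 28 were gained (2.36%). All Tug1 bins present in every WT list were also present in every KO+WT list, as were 2 of 3 in Meg3 and 1 of 3 in Rian. Over the 6 genes it was 24 of 31, of which 17 were in Malat1, and over all genes 5076 of 11334.

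By the same definition, few of these bins were lost in the arginine mutants, but 19 of the 28 bins in all KO+WT lists were in Malat1. From KO+WT to KO+5RK, 0 of 28 bins were lost (7.6% over all genes) and 1 of 29 was gained (2.98%), a Malat1 bin at chr19:5800391-5800490. From KO+WT to KO+13RK, 1 of 28 was lost (16.8%), the Neat1 bin over the start (chr19:5845409-5845508), and 0 of 21 were gained (2.59%). Of the 28, 20 were in all 3 KO+13RK lists, against 2511 of 6220 over all genes. By gene it was 16 of 19 in Malat1 and 0 of 3 in Tug1. In Meg3 it was 1 of 2, in Rian the only one and in Neat1 2 of 3. In KO+13RK, Tug1 had 2.67 ± 2.31 bins per list (SD, n = 3) against 7 ± 1.73 in KO+WT, with replicate 2 at 0. The Rian bins at 676 and 576 nt from the end were called in 1 of 3 KO+13RK lists each.

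Over the 6 lists of both mutants and the 6 of WT and KO+WT, whose METTL14 is unmutated, Tug1 averaged 4.17 against 6.00 bins, Meg3 2.5 against 3.00, Rian 2.00 against 3.00, Malat1 22.3 against 24.2 and Neat1 3.00 against 3.33. All 5 means were lower in the mutants, and all 5 pairs of groups overlapped. The exact permutation p-values were 0.227, 0.610, 0.149, 0.513 and 0.688, and 0.582, 0.966, 0.507, 0.900 and 1 after adjustment over 9257 genes (0% of genes passed, with 1397 at an unadjusted p under 0.05). Of those 1397 genes, 1368 were lower in the mutants, so the lower means are not particular to these RNAs. The smallest adjusted p of any gene in this permutation test was 0.128. With lists trimmed to equal length the differences of Tug1 and Neat1 changed sign, to 0.167 and 1.17 bins. That of Malat1 became 0, while those of Meg3 and Rian stayed below 0. By Fisher's exact test none of the 47 bins differed in presence, nor did any bin of the series (0% of 22615, with 893 at an unadjusted p under 0.05). Of those 893 bins, 869 were called less often in the mutants, and the smallest adjusted p of any bin was 0.345 (Fisher's exact test). Of the places of the 15 constant Malat1 bins, none differed between mutant and wild-type lists (0% of 156 over all genes). The bin at 1282 nt had the only unadjusted p under 0.05 in Malat1 (p = 0.0433, adjusted 0.375, exact permutation).

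Other noncoding RNAs, listed with earlier results of these data known, were examined in the same way. Of 43 listed, 29 had a bin and 22 could be tested. Their median difference in bins per list between KO and the others was -0.208, with 16 lower and 6 higher, against -2.17 over the 5 tested long noncoding RNAs above and -0.417 over all genes tested. By Fisher's exact test 3 of the 19 with a testable bin had one with fewer calls in KO, against 9.86% of such genes overall. These were Lncenc1, a noncoding RNA of naive pluripotent cells, with 4 such bins, and Snhg11 and Platr10 with 1 each. Lncenc1 held 7, 5 and 6 bins in WT, 0 in each KO list and 6 to 8 in every rescued list, a difference of -7 bins (exact permutation, adjusted p = 0.0565). That was the smallest adjusted p of any gene in this test. The difference was -3.33 bins for Dleu2, -3.17 for Snhg14, -2.08 for Firre, -0.75 for Snhg11 and 2.08 for Snhg3, and none of the 22 passed the exact permutation test on bins per list after adjustment.

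The neighbours of the imprinted RNAs were sparsely called. Of 17 listed genes around Meg3, Rian and Kcnq1ot1, 12 had a bin and 5 could be tested, and none passed either exact test. Nap1l4 had 48 bins over the 15 lists, Cd81 25 and Wdr25 14. Wdr25 was called in only 7 lists, with no call in any KO or KO+5RK list. The cluster's protein-coding genes Dlk1 and Rtl1 had 1 bin each, in 1 list. Of 17 genes for paraspeckle proteins, the partners of Neat1, all had a bin, 14 could be tested and none passed on bins per list by exact permutation. Sfpq, which encodes an essential paraspeckle protein, held 66 bins, Tardbp 59 and Cpsf7 46. Tardbp was the only one of 13 with a testable bin to have one with fewer calls in KO by Fisher's exact test, again against 9.86% overall.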

How the data were processed

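The 15 peak lists (one per immunoprecipitated library) were used; the 15 input libraries were not analysed here. The deposited lists have no header. Each line holds a 100 nt bin, its Ensembl gene, the authors' enrichment score, whose scale is not stated, and a deposited p-value and q-value, all q under 0.05. GRCm38, kallisto 0.43.0 and STAR 2.5.3a appear in the submitters' processing notes with no role; no source used here names the peak caller. Symbols matched 99.7% of genes.

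Genes and lists of genes were chosen with earlier results of these data known. Bins were compared as present or absent per list with Fisher's exact test (two-sided), and bins per list with two-sided exact permutation tests (Python 3.11.15, scipy 1.17.1), with Benjamini-Hochberg adjustment over all bins or genes in at least 3 lists and a threshold of 0.05. The scripts were tested on simulated data. Sites named were those called in all 3 lists of a line, at most 5 per gene, and those passing a test; other Malat1, Neat1 and Rian bins were chosen after their values were seen. Alternatives were a stricter q, a minimum enrichment, equal list lengths, a replicate block, overlapping models left out and each list left out. Joining overlapping models into 1 region was an unplanned addition.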

Additional observations from a re-analysis of the deposited data

How the results depend on the processing

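The 3 bins called less often in knockout lists became 0 with a minimum enrichment at the median, and leaving out single lists gave 0 to 6. The 0 with single lists came from leaving out a KO list, where no bin could pass. The bins lost from WT to KO, 13 as reported, were 7 with lists of equal length, 8 with overlapping gene models left out and 13 to 20 with single lists left out. The bins gained, 0 as reported, were 1 with the minimum enrichment, 2 with equal list lengths and 0 to 1 with single lists left out. Genes passing on bins per list, 0 as reported, were 1 (Meg3) with equal list lengths. The Malat1 bins changing place, 8 as reported, were 0 to 9 with single lists left out and 7 to 9 under the other settings, and none were left to place with the minimum enrichment. The 0 came from leaving out a KO list, which raises the smallest p that the test can give. Over all genes, the 1180 bins called less often in KO were 556 with the stricter q, 565 with equal list lengths and 0 with the minimum enrichment.

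The KO difference changed sign for Neat1, to 0.17 bins with the stricter q, 1.5 with the minimum enrichment and 0.42 with equal list lengths, and for Malat1, to 1.5 with equal list lengths. The mutant difference changed sign for Neat1 (1.17) and Tug1 (0.17) with equal list lengths. None of these passed the exact permutation test under any setting. Joining bins within a gene changed nothing, as no bins of a gene overlapped.

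Replicate numbers are shared between lines. Deviations of same-numbered lists correlated at -0.0365 to 0.0159 (30 pairs), and 3 of 15 lists correlated best with their own number, so the numbers were not taken as pairs. With the replicate block, 0 of these bins and 0 bins of any gene were called less often in KO (adjusted p = 0.138 for each of the 3, exact permutation within numbers), and 7 Malat1 bins changed place. The 3 bins kept a difference of -1 in share of lists, the largest possible, so no bin could pass with the block. The lists give no read depth, so an uncalled bin cannot be told apart from one too shallow to call.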
